A study of Lytechinus variegatus with 8 samples.

Results

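The 136 genes described here carry product names of the synapse and of nerve outgrowth. They were picked by product name, with earlier results of these data known, from the 26814 genes of the count table. The names cover synaptotagmins, SNARE proteins, synapsins, transmitter enzymes and vesicular transporters, and active zone and synaptic adhesion proteins. They also cover ELAV-like RNA-binding proteins and the semaphorin, plexin, slit and roundabout families of axon guidance. Their messenger RNA was measured in the spines of the green sea urchin Lytechinus variegatus, in long primary spines and in short secondary spines, and the study asked how the spine kinds differ. The groups were 4 libraries of primary spines, each from 50 spines, and 4 libraries of secondary spines, each from 100 spines. All spines came from 4 untreated wild-caught animals of wild type genotype and of the white-and-green color morph, with 1 library of each spine kind per animal, so a library is a pool of whole spines of 1 animal and holds every cell type of the spine. No age or sex was given for the animals.

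A synapse releases transmitter when calcium enters the nerve ending. Synaptotagmins bind that calcium, and SNARE proteins of the vesicle (synaptobrevin) and of the cell membrane (syntaxin and SNAP-25) then pull the membranes together, with complexin as a clamp and unc-13 and RIM proteins preparing the vesicle at the active zone. Neurexins and neuroligins join the cells on either side of the synapse. Semaphorins and slits are secreted or membrane-bound cues that growing axons read through plexins and roundabout receptors, and these families also act outside the nervous system. Sea urchin spines are covered by a ciliated epidermis and carry a ring of nerve and a catch apparatus and muscle at their base.

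Not every name in the set points to a synapse. Of the 17 SNARE and complexin genes, 10 are syntaxins named 5 to 18, which in vertebrates serve the Golgi, the endosome and other inner membranes. The one gene named synaptobrevin is the YKT6 homolog, a SNARE of the secretory pathway. Of 19 slit-named genes, 2 had a slit protein as the Swiss-Prot match in the deposited table, and 3 receptor genes are plexin domain-containing proteins, which are not plexins. The roundabout-named LOC121420473 was matched to the CDON adhesion protein. In all, 41 of the 136 members had a product name that no other gene of the table carries, and 23 had no Swiss-Prot match. Values of members that share a name are uncertain, because the treatment of reads with several alignments is not known from the labels.

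Libraries held 9252184 to 10902546 counted reads, and the members together took 0.728 to 0.874% of them. Reads were found on 123 to 129 of the members in each library, and 2 members, tryptophan 5-hydroxylase 1-like LOC121406329 and synaptotagmin-12-like LOC121432111, had none in any library. The first makes the precursor of serotonin. A count of 0 was read as allowing up to 3 reads, in 1 library or, for the floor used below, over a pooled group. Of the 136 members, 115 had enough reads to be tested. Values in CPM (read counts relative to the library total, scaled between libraries with TMM) are given per library below, in the order of animals 1 to 4, and ± stands for the SD over 4 libraries for levels and for the standard error for log2 fold changes. Log2 fold changes are secondary minus primary, and an adjusted p below 0.05 was called.

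The level per length, taken from the deposited FPKM (fragments per gene length and library depth), ranked the members very unevenly. ELAV-like protein 3 LOC121423825, of an RNA-binding family that marks neurons in many animals, stood highest at 388 ± 47.2 FPKM in primary and 267 ± 38.3 FPKM in secondary spines. Next came semaphorin-2A-like LOC121415590, at 67.6 ± 44.6 and 66.0 ± 47.7 FPKM, and semaphorin-5A-like LOC121411356, at 68.2 ± 2.8 and 59.6 ± 8.0 FPKM. The highest members of the release machinery were syntaxin-binding protein 1-like LOC121428369, which holds syntaxin ready for fusion, and the vesicle membrane protein synaptophysin-like LOC121411571. The first had 65.5 ± 5.0 and 49.6 ± 6.2 FPKM, and the second had 43.7 ± 5.6 and 30.7 ± 5.2 FPKM. Transmitter enzymes and vesicular transporters were lowest, with a median over 20 members of 0.434 FPKM in primary and 1.38 FPKM in secondary spines. Of these, 11 were acetylcholinesterase-like genes, which do not make or load transmitter. Their own median was 0.109 FPKM in primary and 0.261 FPKM in secondary spines. The most abundant gene of that group, acetylcholinesterase-like LOC121423306, had 68.2 ± 13.3 and 42.9 ± 11.2 FPKM, while the others ranged down to 0.

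**Figure D1:**
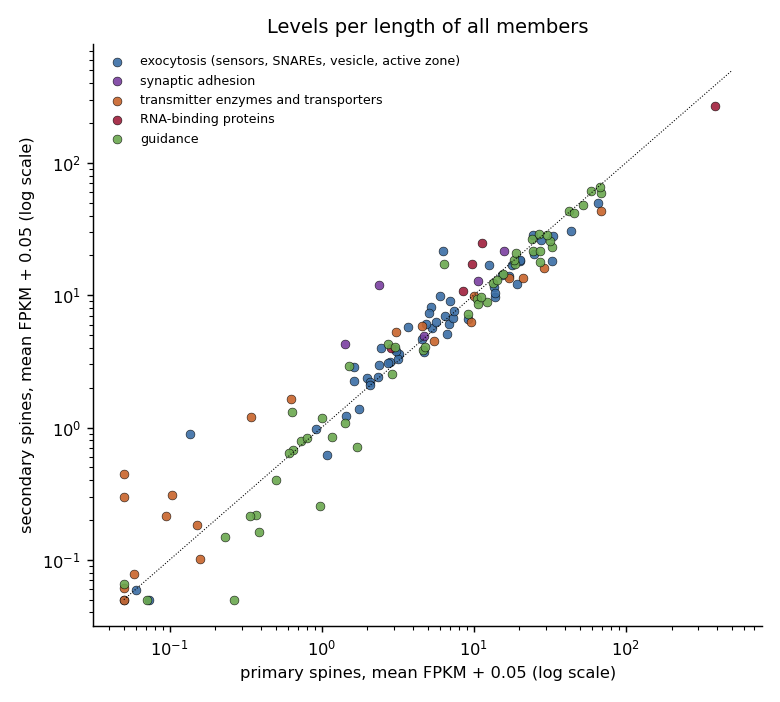
Mean deposited FPKM plus 0.05 of each of the 136 members in primary (x axis) and secondary spines (y axis), both on log scales, coloured by role; the dotted line marks equal levels. ELAV-like protein 3 stands apart at the top right with 388 and 267 FPKM.

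Of the 115 tested members, 3 were higher and 2 lower in secondary spines in the edgeR fit of the group alone. This fit did not use the pairing of libraries by animal, and calls below come from it unless another fit is named. Over all 16788 tested genes 7.81% were called, 5.88% higher and 1.93% lower, against 4.35% of the members. The median log2 fold change of the members was 0.02, with quartiles of -0.27 and 0.31, beside -0.03 for all genes with quartiles of -0.30 and 0.31. The libraries of the 2 groups did not overlap for 20 tested members (17.4%), beside 15.2% of all genes. Each animal gave a library of both kinds, and with the animal as a term (the replicate block) 15 members were called higher and 16 lower. This is 27.0% of the members, beside 24.1% of all genes, with 12.4% higher and 11.7% lower. DESeq2, without the block, called 8 members higher and 10 lower, which is 15.7% of the members beside 12.9% of all genes (8.34% higher and 4.57% lower). After a correction for gene length, edgeR called 3 higher and 7 lower, or 8.70% of the members, beside 8.52% of all genes (5.74% higher and 2.78% lower). Calls by role, given below, were not tested against these shares. A difference in bulk spines may stand for more or fewer cells of a type or for more or less RNA per cell, and these cannot be told apart.

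Among the listed markers of other cell types, only the ciliary genes were called throughout, and the other lists had few calls or none. All 16 tested of 17 axonemal dynein heavy chain genes, which drive ciliary beating, were higher in secondary spines. Their summed level was 585 to 1282 CPM in primary and 3737 to 4948 CPM in secondary libraries, and none of the 17 was at 0 in either group. The summed level of 16 muscle genes was 273 to 368 CPM in primary and 336 to 537 CPM in secondary libraries, with secondary library 1 highest. Of 15 tested, edgeR called 2 higher without the block and 5 with it, and DESeq2 without the block called 4 higher. None was called lower in these fits, and log2 fold changes ran from -0.39 to 5.63. Over all genes the shares called higher were 5.88%, 12.4% and 8.34%. Of 13 skeletogenic and 9 pigment cell genes tested, 0 were called, and edgeR gave 0 with an unadjusted p below 0.05 and DESeq2 0 calls. The 19 listed skeletogenic genes summed to 196 to 1100.3 CPM in primary and 224 to 1407 CPM in secondary libraries, with 4 and 3 of them at 0. The 13 listed pigment cell genes summed to 74.2 to 162 and 79.5 to 147 CPM, with 1 and 0 at 0. Of 21 tested coelomocyte genes 1 was lower, and the 43 listed summed to 2897 to 4004 and 2555 to 4448 CPM, with 7 and 5 at 0. Their part in the values of the members was not tested.

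The members called higher were a calcium sensor, a synaptic adhesion protein and an RNA-binding protein. Synaptotagmin-1-like LOC121410540 (chromosome 3, 23124574 to 23139270) had 24.6, 34.99, 25.1 and 15.3 CPM in primary and 74.5, 90.2, 99.3 and 86.8 CPM in secondary libraries. All secondary libraries lay above all primary libraries, and the gene rose (log2 fold change 1.81 ± 0.24, edgeR adjusted p = 0.00318). Neuroligin-4, X-linked-like LOC121429486 (chromosome 16, 8864725 to 8882287), matched to neuroligin-1, had 6.45, 4.09, 5.17 and 6.20 CPM in primary and 48.4, 12.1, 28.1 and 24.9 CPM in secondary libraries. The lowest secondary library was still above the highest primary one, and secondary library 1 was the highest of all. The neuroligin gene rose (log2 fold change 2.37 ± 0.40, edgeR adjusted p = 0.00856). CUGBP Elav-like family member 1 LOC121406326 (chromosome 19, 3557128 to 3599776), an RNA-binding protein of splicing and mRNA decay, had 23.6, 22.6, 34.2 and 29.7 CPM in primary and 64.5, 57.2, 58.1 and 64.8 CPM in secondary libraries. The groups stood apart without overlap, and the gene rose (log2 fold change 1.15 ± 0.16, edgeR adjusted p = 0.0039).

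**Figure D2:**
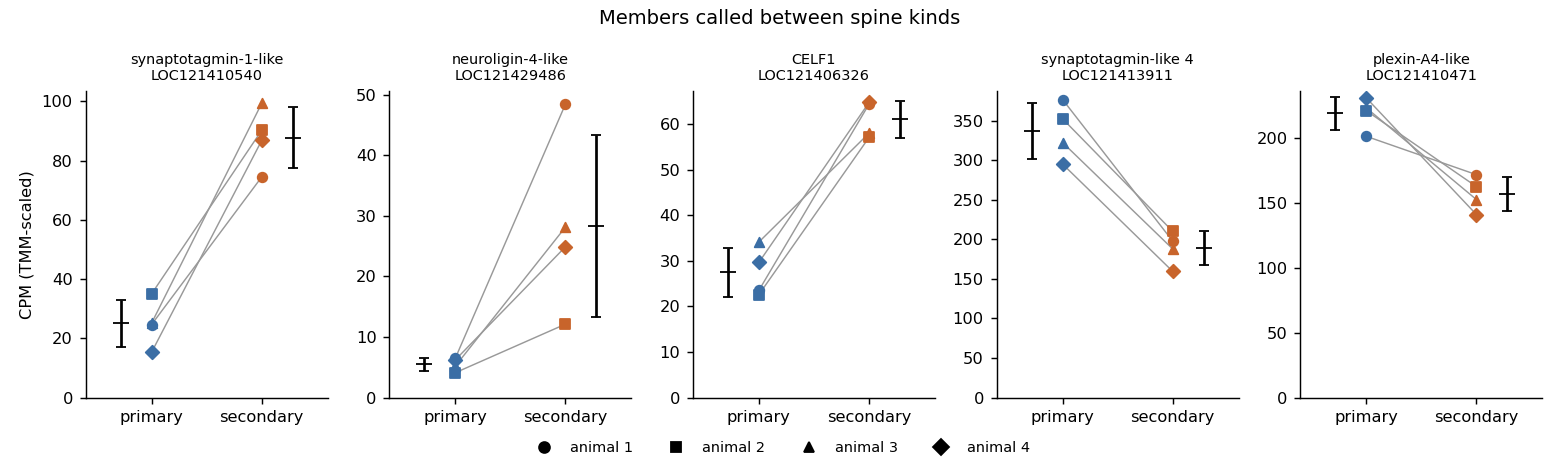
CPM per library (y axis, linear from 0) in primary and secondary spines for the 5 members called by edgeR; marker shapes are animals, grey lines join the libraries of 1 animal, and black bars are the mean ± SD over 4 libraries. In every animal the first 3 genes are higher and the other two lower in secondary spines.

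The members called lower were a secretion protein and a guidance receptor. Synaptotagmin-like protein 4 LOC121413911 (chromosome 4, 34656502 to 34743870), also called granuphilin in mammals, tethers secretory granules to the cell membrane through Rab proteins and is not a synaptotagmin. It had 377, 352, 322 and 295 CPM in primary and 198, 210.00, 188 and 159 CPM in secondary libraries. The groups did not meet, and it fell (log2 fold change -0.83 ± 0.13, edgeR adjusted p = 0.00538). Plexin-A4-like LOC121410471 (chromosome 3, 20908367 to 20933957), a semaphorin receptor, had 201, 221, 223 and 231 CPM in primary and 172, 163, 153 and 141 CPM in secondary libraries. Again no secondary library reached a primary one, and the change was small (log2 fold change -0.48 ± 0.10, edgeR adjusted p = 0.0245). With 1 library left out, the call held in 2 of 8 fits, those without primary library 1 or secondary library 1. It was lost without primary libraries 2, 3 or 4 or secondary libraries 2, 3 or 4 (highest edgeR adjusted p = 0.0732) and with scaling by library size alone (edgeR adjusted p = 0.168). The calls of the other 4 genes held in all 8 such fits.

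Among the 18 synaptotagmins, 14 were tested, with 1 higher, 0 lower and a median log2 fold change of 0.34. With the block, 3 were higher and 1 lower. The second gene named synaptotagmin-1-like, LOC121405894, is the most abundant synaptotagmin per length and had 72.7, 60.8, 87.4 and 112 CPM in primary and 90.7, 103, 92.8 and 105 CPM in secondary libraries. The groups overlapped, and the difference did not pass (log2 fold change 0.23 ± 0.19, edgeR adjusted p = 0.611). Synaptotagmin-14-like LOC121418961, of a branch that in mammals does not bind calcium, had 87.8, 99.6, 118 and 127 CPM in primary and 52.6, 71.2, 69.3 and 79.9 CPM in secondary libraries. Every secondary library was below every primary one, and the gene did not pass in edgeR without the block (log2 fold change -0.66 ± 0.17, edgeR adjusted p = 0.0512). It was called lower with the block (blocked log2 fold change -0.66 ± 0.09, edgeR adjusted p = 0.00195) and, without the block, by DESeq2 (adjusted p = 0.00609) and by edgeR after length correction (adjusted p = 0.0212). The pair named synaptotagmin-11-like, picked out after its values were seen, was called higher with the block. LOC121414812 (blocked log2 fold change 0.68 ± 0.15, edgeR adjusted p = 0.0171) lost that call without animal 1, 2 or 3. LOC121414850 (blocked log2 fold change 0.66 ± 0.14, edgeR adjusted p = 0.0141) lost it without animal 1 or 2. Synaptotagmin-17-like LOC121422638, singled out after its values were seen, had too few reads to be tested, with 6, 1, 0 and 4 reads in primary and 49, 32, 10 and 28 reads in secondary libraries. All secondary libraries held more reads than any primary library, and with no filter on low counts the difference did not pass (log2 fold change 3.23 ± 0.97, edgeR adjusted p = 0.113). The remaining tested synaptotagmins ranged from -0.86 to 0.82 on the log2 scale.

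None of the 17 SNARE and complexin genes was called. There were 0 calls in edgeR, with 0 at an unadjusted p below 0.05, 0 with the block and 0 with DESeq2, and log2 fold changes ran from -0.47 to 0.32. Over all genes edgeR called 7.81% without the block and 24.1% with it, and DESeq2 12.9% without it. Whether these 17 genes differ from such shares was not tested. Synaptosomal-associated protein 25-like LOC121418685, the SNARE of the nerve ending's membrane, had 205, 128, 206 and 224 CPM in primary and 201, 138, 149.8 and 148 CPM in secondary libraries. The highest and the lowest library were both of primary spines, and the difference did not pass (log2 fold change -0.26 ± 0.20, edgeR adjusted p = 0.589). Complexin-like LOC121425101 had 97.6, 53.6, 67.8 and 75.4 CPM in primary and 77.7, 52.9, 43.6 and 48.8 CPM in secondary libraries, with primary library 1 highest and wide overlap (log2 fold change -0.40 ± 0.24, edgeR adjusted p = 0.441). Complexin-4-like LOC121410236 had 14.7, 19.5, 19.3 and 23.7 CPM in primary and 17.4, 19.4, 17.3 and 19.7 CPM in secondary libraries, all secondary libraries lying within the primary range. The YKT6 homolog LOC121425709 had 27.6, 37.2, 39.7 and 30.1 CPM in primary and 23.9, 22.6, 38.1 and 21.96 CPM in secondary libraries, lower in secondary spines of each animal but with overlapping groups. Syntaxin-like LOC121409225, the one syntaxin without a number, did not pass (log2 fold change -0.25 ± 0.16, edgeR adjusted p = 0.479), and neither did the other SNAP-25 family genes LOC121409236 (log2 fold change -0.28 ± 0.21, edgeR adjusted p = 0.583) and LOC121426324 (log2 fold change 0.04 ± 0.31, edgeR adjusted p = 0.979). The 10 syntaxins of inner membranes had a median of -0.10.

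None of the proteins that act on SNAREs or sit in the vesicle membrane was called by edgeR without the block, where 2 were lower with an unadjusted p below 0.05. DESeq2 called 2 lower without the block, the first pair given here. Syntaxin-binding protein 1-like LOC121428369, the Munc18 protein, had 256, 214, 226 and 238 CPM in primary and 199, 194, 165 and 155 CPM in secondary libraries. No secondary library reached the lowest primary one, and the gene missed the threshold in edgeR (log2 fold change -0.39 ± 0.12, edgeR adjusted p = 0.0975). It was called lower with the block (blocked log2 fold change -0.40 ± 0.10, edgeR adjusted p = 0.0251) and by DESeq2 without it (adjusted p = 0.0285). Synaptophysin-like LOC121411571 had 74.8, 57.3, 72.1 and 62.2 CPM in primary and 38.6, 43.02, 57.4 and 49.6 CPM in secondary libraries. These groups touched, in that secondary library 3 lay just above primary library 2, and the gene was called lower with the block (blocked log2 fold change -0.50 ± 0.13, edgeR adjusted p = 0.0257) and by DESeq2 without it (adjusted p = 0.0425), but not by edgeR without it. Each of these blocked calls held in 1 of 4 blocked fits that left out an animal. Synapsin-like LOC121410432 and synapsin-3-like LOC121410447, which tie vesicles to the cytoskeleton, were low and did not pass. The first had 3.66, 2.29, 6.64 and 4.17 CPM in primary and 4.75, 4.58, 6.36 and 3.07 CPM in secondary libraries, and the second had 6.67, 2.39, 7.07 and 8.44 CPM in primary and 9.70, 6.51, 6.16 and 7.03 CPM in secondary libraries. In both, primary library 2 was the lowest library and the groups overlapped. Of 3 synaptic vesicle glycoprotein 2 genes and 3 synaptic vesicle 2-related genes, transporter-like proteins of the vesicle membrane, 2 were called lower with the block, among them synaptic vesicle glycoprotein 2B-like LOC121411790 (blocked log2 fold change -0.50 ± 0.10, edgeR adjusted p = 0.00908).

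**Figure D3:**
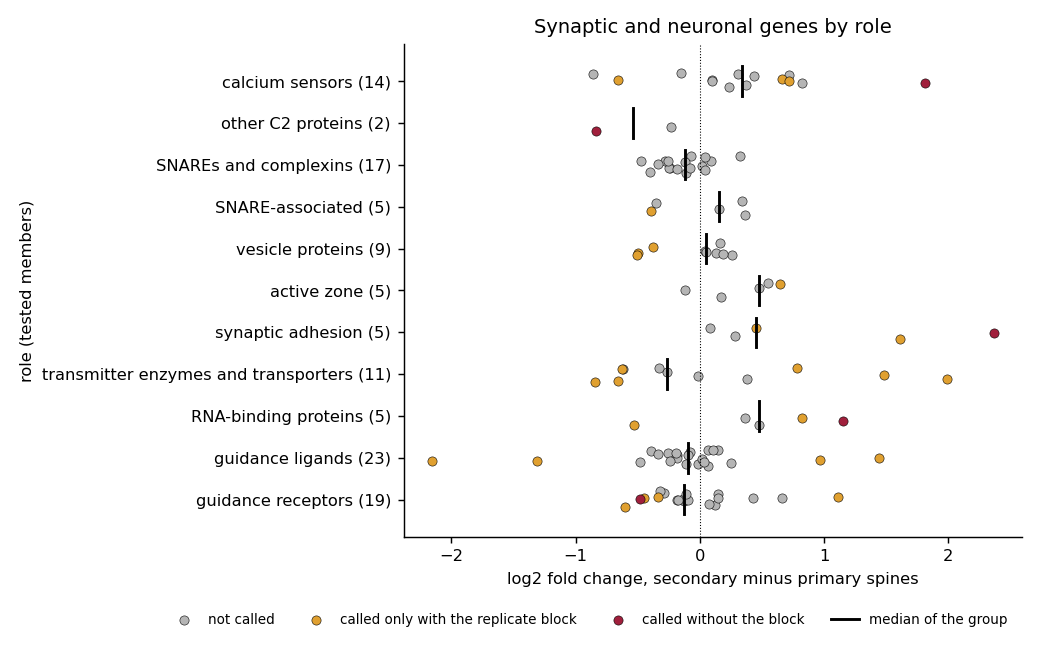
Log2 fold change (x axis, secondary minus primary) of the 115 tested members by role (y axis, number tested in brackets); colours show the edgeR call and black ticks the group medians. SNARE and complexin genes cluster near 0 between -0.47 and 0.32, while transmitter genes spread from -0.85 to 1.99.

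Without the block, edgeR called 0 of 5 active zone genes, 1 had an unadjusted p below 0.05, and DESeq2 called 1. Over all genes edgeR called 7.81% and DESeq2 12.9%. RIMS-binding protein 2-like LOC121409024, which links calcium channels to the release site, had 57.2, 70.98, 94.1 and 61.96 CPM in primary and 120.2, 123, 121 and 80.03 CPM in secondary libraries. Secondary library 4 fell among the primary libraries while the other secondary libraries lay above them, and the gene was called higher with the block (blocked log2 fold change 0.65 ± 0.14, edgeR adjusted p = 0.0128). That call was lost without animal 2 (edgeR adjusted p = 0.0552). Without the block DESeq2 called the gene higher (adjusted p = 0.0427) and edgeR did not. After length correction without the block, the log2 fold change was smaller and did not pass (0.39 ± 0.19, edgeR adjusted p = 0.326). Of the 4 unc-13 genes, which prime vesicles, unc-13 homolog B-like LOC121415537 had 82.2, 32.3, 52.7 and 70.6 CPM in primary and 149, 71.6, 65.3 and 61.3 CPM in secondary libraries. Secondary library 1 stood far above the rest, and without it the log2 fold change was 0.15, against 0.55 ± 0.37 with all libraries (edgeR adjusted p = 0.521). Unc-13 homolog A-like LOC121415538, on the same strand 79230 bases from LOC121415537, had 4.41, 2.69, 4.43 and 5.88 CPM in primary and 8.05, 3.05, 5.16 and 3.34 CPM in secondary libraries. Unc-13 homolog D-like LOC121422221, matched to the related BAI1-associated protein 3, was the highest of the 4 per length and had 64.1, 78.7, 88.9 and 84.7 CPM in primary and 66.6, 70.1, 85.4 and 68.4 CPM in secondary libraries. The groups of both genes overlapped. Unc-13 homolog C-like LOC121418080 was low and had 0.645, 0.199, 0.738 and 3.53 CPM in primary and 1.75, 1.32, 0.497 and 3.51 CPM in secondary libraries, with both libraries of animal 4 highest. None of the 4 was called with the block either.

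Synaptic adhesion genes all had log2 fold changes above 0, from 0.08 to 2.37 over 5 members, with a median of 0.45 (0.28 with the gene length correction, which left 4 of 5 above 0). Besides the neuroligin, neurexin-3a-like LOC121418785 (chromosome 7, 23041623 to 23178571), the presynaptic partner of neuroligins, had 134, 132, 151 and 183 CPM in primary and 227, 205, 189 and 199.6 CPM in secondary libraries. The lowest secondary library was above the highest primary one, and the gene missed the threshold in edgeR (log2 fold change 0.45 ± 0.13, edgeR adjusted p = 0.0821) and passed it in DESeq2 (adjusted p = 0.021). It was called higher with the block (blocked log2 fold change 0.46 ± 0.12, edgeR adjusted p = 0.0278), a call that held in 1 of 4 blocked fits without an animal. The neurexin like receptor 1-like gene LOC121408769, matched to a contactin-associated protein, had 6.35, 3.09, 2.74 and 2.14 CPM in primary and 25.7, 4.78, 6.06 and 7.20 CPM in secondary libraries. Secondary library 1 carried most of the difference, for the log2 fold change was 1.61 ± 0.62 with it and 0.75 without it. It was called higher with the block (blocked log2 fold change 1.43 ± 0.26, edgeR adjusted p = 0.00726), but not in the blocked fit without animal 1 (edgeR adjusted p = 0.0532). The pair named neurexin-4-like, which in the fly is a septate junction protein, was not called. LOC121410654 had 88.95, 92.7, 113 and 127 CPM in primary and 115, 131, 126 and 140.2 CPM in secondary libraries, and LOC121431448 had 43.9, 36.99, 52.5 and 39.4 CPM in primary and 43.7, 25.5, 86.6 and 27.3 CPM in secondary libraries. The latter was highest and lowest in secondary libraries 3 and 2.

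Of the 11 tested transmitter genes, edgeR called 0 without the block, with 2 higher and 1 lower at an unadjusted p below 0.05, and DESeq2 called 1 higher. With the block, edgeR called 3 higher and 3 lower. Choline O-acetyltransferase-like LOC121432108, the enzyme that makes acetylcholine, had 8.71, 5.58, 11.7 and 8.65 CPM in primary and 19.2, 14.8, 15.00 and 10.5 CPM in secondary libraries. It was higher in secondary spines in all 4 animals with overlapping groups, and was called by edgeR with the block (blocked log2 fold change 0.79 ± 0.22, edgeR adjusted p = 0.0376) but not without it. That blocked call held in 2 of 4 blocked fits without an animal. The probable vesicular acetylcholine transporter-B LOC121431827, which loads acetylcholine into vesicles, lies 30741 bases from it on the same strand of chromosome 18. It had 39.3, 13.1, 27.9 and 19.7 CPM in primary and 53.1, 29.8, 27.4 and 19.8 CPM in secondary libraries. The secondary library was the higher one in animals 1, 2 and 4 by unequal amounts, and the transporter was not called (log2 fold change 0.38 ± 0.40, edgeR adjusted p = 0.73). The difference between the enzyme and the transporter was not tested.

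Of the 11 acetylcholinesterase-like genes, which break acetylcholine down or are related esterases, 6 had too few reads to be tested. All 5 tested had log2 fold changes below 0, also with RLE scaling, library size alone and the gene length correction. None was called by edgeR (1 had an unadjusted p below 0.05) or by DESeq2, and 3 were called lower with the block. The most abundant, LOC121423306 (chromosome 10, 11171222 to 11189092), had 96.4, 141, 156 and 137 CPM in primary and 58.9, 82.98, 113 and 81.2 CPM in secondary libraries. It was lower in secondary spines of every animal, although the groups overlapped (blocked log2 fold change -0.67 ± 0.09, edgeR adjusted p = 0.00193). Among the 6 untested genes, reads over all primary and all secondary libraries were 4 and 22 in LOC121409662 and 4 and 16 in LOC121411249. They were 1 and 4 in LOC121423057, 0 and 1 in LOC121411251, and 13 and 7 in LOC121411255. LOC121412053 had 19 reads in secondary library 1 and 0 in every other library. Without the filter none of the 6 passed (edgeR adjusted p 0.434 to 0.855).

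Both vesicular glutamate transporter 1-like genes, which load glutamate into vesicles, were low and higher in secondary spines of all 4 animals. LOC121421358 had 0.430, 1.40, 1.79 and 2.78 CPM in primary and 3.78, 9.66, 5.96 and 6.15 CPM in secondary libraries, and LOC121421485 had 2.26, 0.399, 4.43 and 3.21 CPM in primary and 11.3, 2.85, 8.24 and 6.33 CPM in secondary libraries. The groups of the first did not overlap and those of the second did. Neither passed in edgeR without the block (log2 fold change 1.99 ± 0.54, edgeR adjusted p = 0.0654, and 1.48 ± 0.66, edgeR adjusted p = 0.273), and both were called higher with it (edgeR adjusted p = 0.00557 and 0.0152). Without the block DESeq2 called LOC121421358 higher (adjusted p = 0.00484) and did not call LOC121421485, whose blocked call was lost without animal 1 (edgeR adjusted p = 0.0757). Their summed level was 1.79 to 6.22 CPM in primary and 12.5 to 15.1 CPM in secondary libraries.

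The vesicular inhibitory amino acid transporter-like genes load GABA and glycine. LOC121407608 had 12.4, 31.00, 17.1 and 11.5 CPM in primary and 9.79, 18.9, 20.3 and 11.1 CPM in secondary libraries, and LOC121407809 had 12.7, 35.8, 20.04 and 10.3 CPM in primary and 13.2, 16.5, 37.1 and 11.4 CPM in secondary libraries. The highest library of the first was primary library 2 and that of the second secondary library 3, and neither was called. The third, LOC121430920, had 0 reads in all primary libraries and 32, 7, 7 and 6 reads in secondary libraries. With the floor set at 3 reads pooled over the primary group, the pooled secondary level was 15.9 times that floor. This ratio does not cover the error of the secondary reads or the spread between animals. Without secondary library 1 that ratio was 8.13. It was too low to be tested with the filter, and without the filter its edgeR adjusted p was 0.0541. Tyrosine 3-monooxygenase-like LOC121405946, the first enzyme of dopamine synthesis, had 18 reads over all primary and 26 reads over all secondary libraries.

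**Figure D4:**
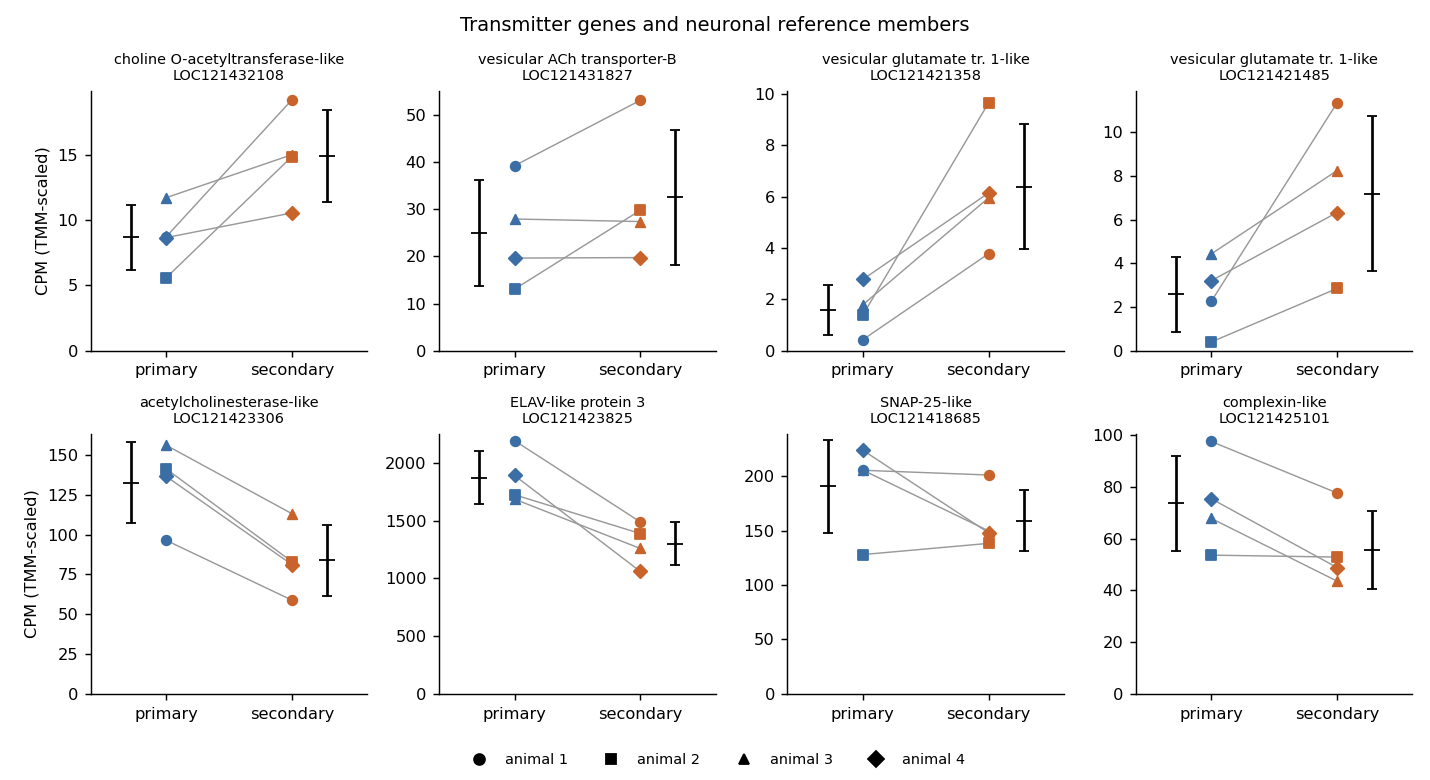
CPM per library (y axis, linear from 0) in primary and secondary spines for transmitter genes and for ELAV-like protein 3, SNAP-25-like and complexin-like; markers are animals, grey lines join the libraries of 1 animal and black bars are mean ± SD over 4 libraries. The glutamate transporters and choline O-acetyltransferase-like are higher in secondary spines of each animal, acetylcholinesterase-like LOC121423306 and ELAV-like protein 3 lower in each, and SNAP-25-like overlaps.

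ELAV-like protein 3 LOC121423825 (chromosome 11, 26268705 to 26307535) had 2193, 1725, 1687 and 1892 CPM in primary and 1489.8, 1389, 1259.6 and 1061 CPM in secondary libraries. It was lower in secondary spines of each animal with no overlap and missed the threshold in edgeR (log2 fold change -0.53 ± 0.14, edgeR adjusted p = 0.0607). It was called lower with the block (blocked log2 fold change -0.53 ± 0.12, edgeR adjusted p = 0.0178) and, without the block, by DESeq2 (adjusted p = 0.00783) and by edgeR after length correction (adjusted p = 0.0262). The blocked call held in 1 of 4 blocked fits without an animal. The 4 CUGBP Elav-like genes, of a separate RNA-binding family, had log2 fold changes of 0.36 to 1.15. The second CUGBP Elav-like family member 1 gene LOC121406217 lies 37064 bases from the called one on the same strand and had 5.81, 3.79, 4.32 and 5.23 CPM in primary and 10.1, 6.31, 6.95 and 10.6 CPM in secondary libraries. Its groups also stayed apart, and it was called higher by edgeR with the block (blocked log2 fold change 0.81 ± 0.17, edgeR adjusted p = 0.0131) but not without it, and the blocked call was lost without animal 1 (edgeR adjusted p = 0.0533). Whether both CUGBP Elav-like family member 1 entries are parts of 1 gene was not examined.

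Guidance ligands numbered 27, of which 23 were tested and 0 called by edgeR without the block. With an unadjusted p below 0.05 there were 2 higher and 2 lower in edgeR, and DESeq2 called 2 higher and 1 lower. The 8 semaphorins had log2 fold changes between -0.33 and -0.02, with 0 of 8 above 0, but 4 of 8 were above 0 when libraries were scaled by size alone, and 1 of 8 with the gene length correction. Size scaling shifted the median of all genes from -0.03 to 0.14. Semaphorin-5A-like LOC121411356 had 366, 382, 390.4 and 408 CPM in primary and 406, 328, 310.3 and 314 CPM in secondary libraries. Secondary library 1 lay within the primary range and the other secondary libraries below it. The slit gene with the highest level, slit homolog 1 protein-like LOC121425538, was matched to slit homolog 2 and had 272, 315, 281 and 397 CPM in primary and 304, 360.2, 327 and 307 CPM in secondary libraries. The groups overlapped fully, and the difference was close to 0 (log2 fold change 0.04 ± 0.14, edgeR adjusted p = 0.955).

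Slit-named genes without a slit match moved in either direction with the block. The slit homolog 2 protein-like gene LOC121414823 had 3.76, 8.27, 3.59 and 8.55 CPM in primary and 10.6, 33.1, 8.74 and 13.4 CPM in secondary libraries. The lowest secondary library was above the highest primary one, and secondary library 2 was the highest (blocked log2 fold change 1.36 ± 0.23, edgeR adjusted p = 0.00557). DESeq2 also called it higher without the block (adjusted p = 0.0479). Slit homolog 3 protein-like LOC121409635, matched to a Toll-like receptor, had 4.19, 5.08, 6.43 and 5.77 CPM in primary and 6.98, 9.36, 15.5 and 10.3 CPM in secondary libraries. It too kept its groups apart (blocked log2 fold change 0.94 ± 0.17, edgeR adjusted p = 0.00742) and was called higher by DESeq2 without the block (adjusted p = 0.0287). It lies 15165 bases from RIMS-binding protein 2-like LOC121409024 on the opposite strand. In the other direction, slit homolog 3 protein-like LOC121413620 had 7.31, 3.89, 9.07 and 2.14 CPM in primary and 3.10, 1.73, 3.38 and 0.791 CPM in secondary libraries. It was lower in secondary spines of each animal, and animals 1 and 3 stood above animals 2 and 4 within each spine kind (blocked log2 fold change -1.31 ± 0.22, edgeR adjusted p = 0.00523). The gene of this name with the lowest fold change of all tested members, LOC121412613, was picked out after its values were seen and had 2.80, 1.99, 1.27 and 4.91 CPM in primary and 0.970, 0.814, 0.199 and 0.439 CPM in secondary libraries. No secondary library reached a primary one at these low levels, and it was called lower with the block (blocked log2 fold change -2.14 ± 0.47, edgeR adjusted p = 0.0147) and by DESeq2 without it (adjusted p = 0.0179), but not by edgeR without it. The blocked call was lost without animal 3 or 4 (edgeR adjusted p = 0.0511 and 0.0589).

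Of 23 guidance receptor genes 19 were tested. Without the block edgeR called 0 higher and 1 lower, the plexin-A4-like gene given above, and DESeq2 called 0 higher and 4 lower. With the block, edgeR called 1 higher and 4 lower. Plexins proper numbered 17, and the 13 tested had a median log2 fold change of -0.13, or 0.04 with scaling by library size alone. The plexin-A4-like gene LOC121410472 lies 80413 bases from the called LOC121410471 on the same strand and had 67.01, 75.9, 70.6 and 63.7 CPM in primary and 56.5, 54.3, 47.2 and 44.5 CPM in secondary libraries. Its groups also stood apart, and it was called lower with the block (blocked log2 fold change -0.46 ± 0.10, edgeR adjusted p = 0.0128), a call lost without animal 2 or 3 (edgeR adjusted p = 0.0508 and 0.0702). Without the block it was called lower by DESeq2 (adjusted p = 0.0105) and by edgeR after length correction (adjusted p = 0.0284), but not by edgeR with TMM scaling alone. The plexin-A4-like gene LOC121412068, the highest plexin-A4-like gene per length, had 180.2, 171, 175 and 175 CPM in primary and 159, 162, 162 and 156 CPM in secondary libraries. Its groups did not overlap either, yet the difference was small and did not pass (log2 fold change -0.13 ± 0.08, edgeR adjusted p = 0.476). It shares 2181 bases with the plexin-A4-like gene LOC121411363 on the same strand. Plexin-A2-like LOC121411870, named after its values were seen, also had groups without overlap. It did not pass in edgeR without the block (log2 fold change -0.33 ± 0.11, edgeR adjusted p = 0.108). It was called lower with the block (edgeR adjusted p = 0.0370). Without the block, DESeq2 (adjusted p = 0.0251) and edgeR after length correction (adjusted p = 0.0187) called it lower. Plexin domain-containing protein 2-like LOC121408805 had 103, 129, 95.03 and 82.6 CPM in primary and 72.04, 73.02, 62.7 and 61.4 CPM in secondary libraries. Here the secondary libraries lay below all primary libraries, and the gene was just above the threshold in edgeR (log2 fold change -0.61 ± 0.16, edgeR adjusted p = 0.0508). It was called lower with the block (blocked log2 fold change -0.59 ± 0.10, edgeR adjusted p = 0.00435) and, without the block, by DESeq2 (adjusted p = 0.00736) and by edgeR after length correction (adjusted p = 0.0370). The receptor called higher with the block but not without it, and likewise named after its values were seen, was roundabout homolog 1-like LOC121420101, matched to roundabout homolog 3. It had 2.69, 1.10, 1.05 and 2.99 CPM in primary and 8.24, 2.95, 1.59 and 4.22 CPM in secondary libraries, higher in secondary spines of each animal with overlapping groups (blocked log2 fold change 1.05 ± 0.31, edgeR adjusted p = 0.0427). The blocked call was lost without animal 1, 2 or 3.

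Several guidance genes differed far more between animals than between spine kinds. This comparison was added, and the genes given for it were picked, after the values were seen. Their p-values, with or without the extreme animal, therefore describe the picked pattern and add no support to it. In the edgeR fit with group and animal, the animal term was called for 40 of 115 members (34.8%), beside 37.0% of all genes. By role, it was called for 10 of 23 tested guidance ligands (43.5%) and 9 of 19 guidance receptors (47.4%). The share was higher for transmitter enzymes and transporters, 7 of 11 (63.6%), and 0 to 40.0% in the other roles. Differences between animals were thus not particular to guidance genes. Animal means of CPM spanned at least 4-fold in 14 tested members (12.2%), beside 15.7% of all genes. Semaphorin-2A-like LOC121415590 (chromosome 5, 16903801 to 16966669) had 98.7, 92.1, 149.7 and 10.3 CPM in primary and 93.1, 89.2, 159 and 5.36 CPM in secondary libraries. Animal 4 was low in both of its libraries (edgeR adjusted p of the animal term 0.000227). Semaphorin-1A-like LOC121430086 had 75.5, 65.4, 116 and 35.3 CPM in primary and 70.1, 57.7, 114 and 31.9 CPM in secondary libraries, again with animal 4 lowest and animal 3 highest in both kinds of spine (0.000324).

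The animal term was also called for 3 receptor genes with wide spans. Plexin-B2-like LOC121431223 (chromosome 17, 9410318 to 9422872) had 1.61, 0.0997, 0.844 and 11.8 CPM in primary and 1.36, 1.22, 0.596 and 15.99 CPM in secondary libraries. Animal 4 alone was high (edgeR adjusted p of the animal term 0.00192), and the term was not called without it (0.464). Plexin-B-like LOC121430952, in the same cluster of 4 plexin genes on chromosome 17, had 148, 205, 556 and 236 CPM in primary and 128, 321, 559 and 198 CPM in secondary libraries. Animal 3 was highest in both of its libraries (0.00216), and the term was not called without animal 3 (0.0803). The roundabout-named LOC121420473 had 40.9, 50.6, 27.4 and 104 CPM in primary and 31.1, 32.8, 27.3 and 87.1 CPM in secondary libraries. Animal 4 was highest in both (0.00076), and the term was not called without it (0.104).

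Wide spans were also present in low slit-named genes without a Swiss-Prot match. Slit homolog 3 protein-like LOC121412273 had 0, 63, 10 and 13 reads in primary and 1, 73, 9 and 9 reads in secondary libraries. Animal 2 held most of the reads, and animal 1 had 1 read in all (edgeR adjusted p of the animal term 0.00144). Slit homolog 2 protein-like LOC121408530 had 88, 4, 19 and 9 reads in primary and 111, 7, 16 and 25 reads in secondary libraries. Animal 1 was highest in both kinds of spine (0.00137), without which the term was not called (0.172). This gene shares its whole length of 3334 bases with LOC121408528, a centromere protein J-like gene, on the same strand. Which of these genes its reads came from was not tested. Without animal 2, slit homolog 3 protein-like LOC121412273 had too few reads to be tested. In all 7 genes the log2 fold change between spine kinds was not called.

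**Figure D5:**
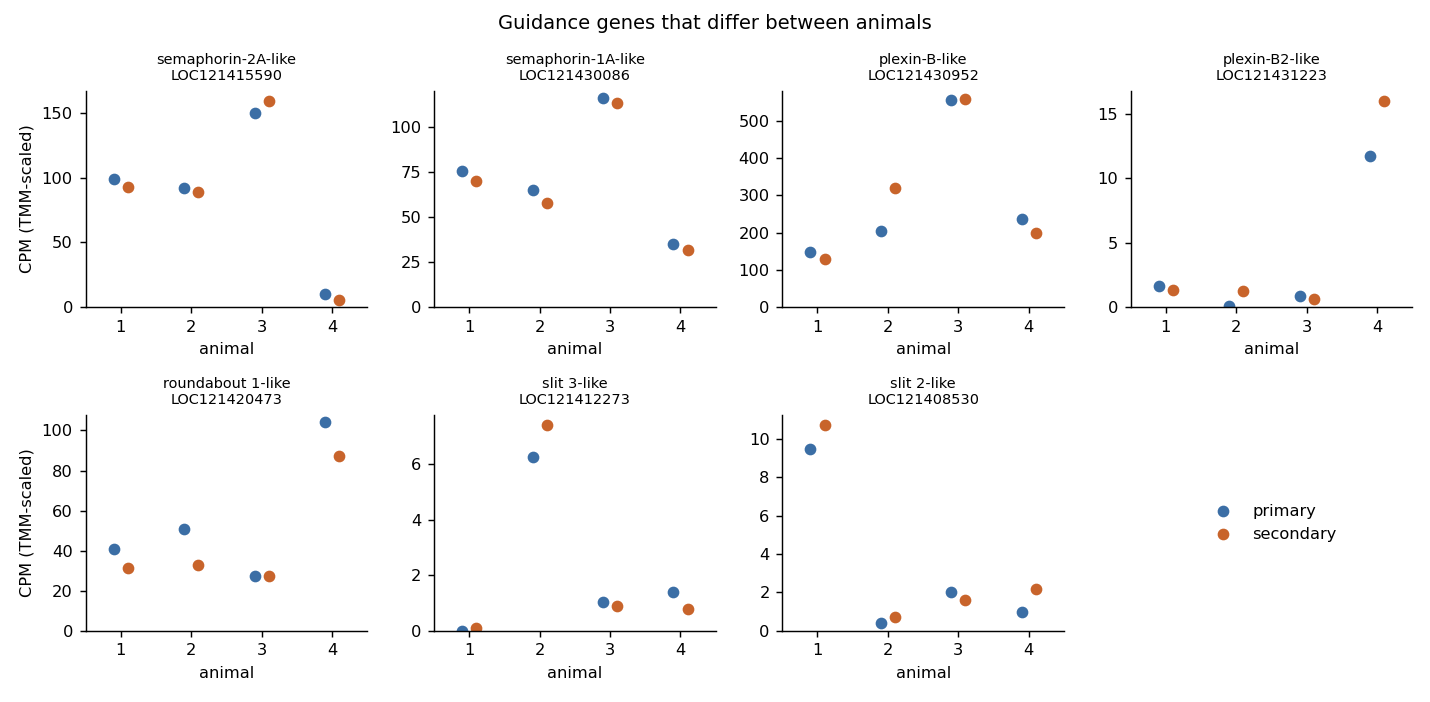
CPM per library (y axis, linear from 0, own scale in each panel) by animal (x axis) for 7 guidance genes chosen after their values were seen; blue points are primary and orange points secondary spines. For semaphorin-2A-like LOC121415590, animal 4 has 10.3 and 5.36 CPM and the other animals 89.2 to 159 CPM.

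Some members lie near each other in the genome. Of the 136, 39 formed 23 pairs of consecutive members with gaps of at most 100000 bases (assembly Lvar_3.0). Whether other genes lie between them was not examined, and no share for other genes was worked out. Plexins formed a row on chromosome 3 from 64756580 to 64951829, where plexin-A4-like LOC121412114 and plexin-B-like LOC121412118 were tested and 3 plexin-B2-like genes between and beside them had too few reads. A set of 4 acetylcholinesterase-like genes lay in a row on chromosome 3 from 49627334 to 49734692, all below the filter. Both genes named synaptotagmin-1-like lay on different chromosomes, 3 and 19. Another gene overlapped 12 members, in 5 of them on the opposite strand, and these 5 were not called.

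Other genes of the same processes were set beside the members. Over all genes, 5.88% were called higher and 1.93% lower (12.4% and 11.7% with the block). Of 25 tested genes of the vesicle cycle outside the set, 1 was higher and 1 lower (2 and 3 with the block), with a median log2 fold change of 0.07. Protein piccolo-like LOC121420020, named for a scaffold of the active zone and without a Swiss-Prot match, had 9.14, 11.5, 14.1 and 7.48 CPM in primary and 27.3, 39.1, 43.9 and 49.2 CPM in secondary libraries and rose (log2 fold change 1.92 ± 0.26, edgeR adjusted p = 0.00343). Clathrin light chain A-like LOC121427111, a coat protein of vesicle recycling, fell (log2 fold change -0.55 ± 0.13, edgeR adjusted p = 0.0401), a call that held in 1 of 8 fits without a library, the one without primary library 4 (highest edgeR adjusted p = 0.115). It was lost with library size alone, without the filter and with the gene length correction. Of 34 genes of transmitter synthesis and uptake, 2 were higher and 0 lower (5 and 5 with the block), with a median of -0.04. They were the GABA transporter 1-like gene LOC121410168, which had 16.9, 17.05, 11.4 and 18.8 CPM in primary and 115, 72.1, 30.2 and 52.2 CPM in secondary libraries and rose (log2 fold change 2.07 ± 0.39, edgeR adjusted p = 0.0133), and the betaine transporter-like gene LOC121418235. The latter rose (log2 fold change 1.46 ± 0.29, edgeR adjusted p = 0.018), which no longer passed once secondary library 4 was left out (edgeR adjusted p = 0.0534).

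Of 24 tested guidance genes outside the set, 4 were higher and 4 lower (5 and 6 with the block), with a median of 0.54. Over all genes, 5.88% were higher and 1.93% lower (12.4% and 11.7% with the block). The 3 genes given below were picked by smallest p and are all lower, so none of the 4 higher genes is described. Their difference from the members was not tested. The pair named netrin-1-like, secreted guidance cues, lies on chromosome 10. LOC121422396 (35185069 to 35215863) had 131, 112, 139.9 and 148 CPM in primary and 56.9, 57.3, 56.2 and 51.9 CPM in secondary libraries. Secondary libraries were all below primary ones, and it fell (log2 fold change -1.26 ± 0.12, edgeR adjusted p = 0.00112). LOC121422999 (35274738 to 35276903) had 79.1, 67.2, 91.1 and 81.6 CPM in primary and 35.8, 41.8, 32.7 and 29.8 CPM in secondary libraries and likewise fell without overlap (log2 fold change -1.19 ± 0.15, edgeR adjusted p = 0.00285). Teneurin-3-like LOC121409056, a synaptic adhesion receptor, fell (log2 fold change -0.63 ± 0.11, edgeR adjusted p = 0.00852). Of 23 tested regulators of neuron formation, 1 was higher and 1 lower (5 and 4 with the block). The RNA-binding protein Nova-2-like LOC121418484, a splicing factor of neurons, had 179, 194, 185 and 174 CPM in primary and 112, 132, 126 and 122 CPM in secondary libraries and fell (log2 fold change -0.57 ± 0.10, edgeR adjusted p = 0.00858). The POU domain class 4 gene LOC121408306, of sensory neuron formation, rose (log2 fold change 1.59 ± 0.18, edgeR adjusted p = 0.00164).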

How the data were processed

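RNA of 4 primary and 4 secondary spine libraries was sequenced by the authors. RNA was extracted with TriZol and selected with poly-T beads, per the labels' protocols, which name a stranded and an unstranded library without saying which was made. HISAT2 2.0.5 and featureCounts are named in the submitters' processing notes, and the design text names assembly 3.0 as the reference. The sources used here do not state the strand setting, so reads of overlapping and antisense genes cannot be told apart. The deposited counts were whole numbers of reads per gene. The deposited FPKM values equal count over gene length and 1 constant per library, 0.905 to 1.08 times the total count, so they carry a scaling in addition to depth.

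From there, the whole count table was fitted in R 4.3.3 with edgeR 4.0.16 (glmQLFit, robust, and glmQLFTest). The model held the group alone, libraries were scaled with TMM, and filterByExpr kept 16788 genes. Benjamini-Hochberg adjustment ran over all of them at a threshold of 0.05. The standard error of a log2 fold change is its size divided by the square root of F. Libraries with the same number deviated together from their group means (r of log2 CPM 0.733 to 0.811, against -0.317 to -0.200 for unlike numbers), and the design text has both spine kinds from the same animals, so a number was taken as an animal. Biological variation (the common coefficient) came to 0.470 without and 0.183 with the animal term. Within groups, pairs of libraries gave chi-square values averaging 37.1 to 59.7 over genes, so none duplicated another. Other settings tried were the block, DESeq2 1.42.0 (block in or out), RLE scaling, library size alone, no filter, a filter of 1 CPM in 4 libraries, a correction for gene length (loess, span 0.3), and leaving out each library or animal. The fits were tested on simulated data.

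Members and lists were chosen with earlier results of these data known. Exclusions of unrelated names were added to the lists of further genes after their names were read. Named members were those called, up to 12 called by edgeR with the block but not without it by smallest p, the 10 highest in FPKM, the highest of each role, and the core transmitter, vesicle and adhesion genes whatever their values. Of each further list, up to 3 called genes by smallest p were named. Coordinates are those of the deposited table. Intervals and floors cover counting error alone.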

Additional observations from a re-analysis of the deposited data

Results flagged for a closer look

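Among 98 sets of 4 libraries, from 49 named members, 6 sets held a library whose gap to its nearest neighbour exceeded the 95% limit of Dixon's test. Chance gives such a gap in about 1 of 20 sets. In secondary spines, library 1 stood out as the highest 3 times. Unc-13 homolog B-like LOC121415537 had 149 CPM there and 61.3 to 71.6 CPM in the other secondary libraries. The neurexin like receptor 1-like gene LOC121408769 had 25.7 CPM there against 4.78 to 7.20 CPM. The vesicular inhibitory amino acid transporter-like gene LOC121430920 had 3.10 CPM there against 0.527 to 0.712 CPM. The summed level of the 16 muscle genes was also highest in that library, at 537 CPM, and its part in these values was not tested. RIMS-binding protein 2-like LOC121409024 was lowest in secondary library 4, at 80.0 CPM against 120.2 to 123 CPM. The YKT6 homolog LOC121425709 was highest in secondary library 3, at 38.1 CPM against 21.96 to 23.9 CPM. Unc-13 homolog C-like LOC121418080 was highest in primary library 4, at 3.53 CPM against 0.199 to 0.738 CPM.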

How the results depend on the processing

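Members called higher numbered 3 and lower 2. The replicate block gave 15 and 16, DESeq2 8 and 10, DESeq2 plus block 15 and 15, and gene length correction plus block 14 and 25. Members called lower were 7 with the length correction alone and 1 with library size alone. Leaving out 1 library gave 3 to 4 higher and 1 to 3 lower. In the blocked fit without animal 1, 2, 3 or 4, members called higher were 7, 9, 14 and 17, and lower 9, 12, 8 and 11. Over all genes, 987 were higher and 324 lower. The block gave 2077 and 1964, DESeq2 plus block 2106 and 1990, and length correction plus block 1942 and 2415. DESeq2 called 767 lower, the length correction alone 467 and library size alone 168. Leaving out 1 library gave 718 to 877 higher and 158 to 254 lower. The blocked fit without animal 1, 2, 3 or 4 gave 1402, 1536, 1644 and 1826 higher and 977, 1072, 1220 and 1395 lower. Members that differed between animals numbered 40, with 37 to 49 under the other settings and 24 to 32 without 1 animal. The cause of these shifts was not tested. No call of a named gene changed sign under the settings run. Members with a few reads per library could not be tested at this depth.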
